A study of Mus musculus with 6 samples.

Results

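The Ms4a genes encode small proteins that cross the cell membrane several times, with both ends inside the cell, and most known members belong to blood cell lineages. Ms4a1 encodes CD20, the surface protein by which B cells are commonly recognised. Ms4a2, Ms4a4b and Ms4a6b are known in mast cells and T cells, and Ms4a6c, Ms4a6d and Ms4a7 in macrophages. In humans, variation at the MS4A gene cluster is associated with Alzheimer's disease, and the genes concerned are expressed in microglia. The 6 genes described here are Ms4a1, Ms4a4c, Ms4a6b, Ms4a6c, Ms4a6d and Ms4a7, out of 18193 genes measured. They were taken by symbol from the probe sets that the platform annotation assigns to exactly 1 gene, and the brightest probe set over all 6 arrays stood for each gene. They were picked with their differences between light-damaged and dark-adapted arrays already known, so those differences are a description and were not used as a test of these genes.

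The tissue was retinal pigment epithelium (RPE), the layer that supports the photoreceptors and engulfs their shed outer segments, from mice of the albino strain BALB/c. The light-damaged group (3 arrays) had 1 week of dark adaptation, then 1.5 h of white fluorescent light at 6000 lux, and RPE was taken 24 h later. The dark-adapted group (3 arrays) had the same week in the dark and no damaging light. The labels give no age or sex and do not say whether an array stands for 1 animal or a pool, so the errors and p-values cover the spread among these arrays alone and may be technical. Values are log2 expression values made by RMA, a procedure that removes background, puts the arrays on a common scale and combines the probes of a set. Each difference is the light-damaged minus the dark-adapted log2 value. Each error (SE) comes from a limma fit over all genes with the replicate number as a block, and a gene is said to be called at a Benjamini-Hochberg adjusted p under 0.05 in that fit.

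The arrays numbered replicate 1 stood apart in both groups, at -68.73 (light-damaged) and -38.60 (dark-adapted) on the first principal component, against 18.76 to 34.02 for the other arrays. The 3′ probes of Gapdh exceeded its 5′ probes, a measure of RNA integrity, by 2.48 and 2.45 on these arrays and by 1.54 to 1.80 on the others. The mean of 10 RPE markers was 12.15 to 12.62 in light-damaged and 12.65 to 13.04 in dark-adapted arrays, and that of 7 photoreceptor markers was 12.15 to 12.78 and 12.57 to 13.06, so transcripts of both cell types were in the samples.

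RefSeq (GRCm38.p6) lists 21 Ms4a genes on mouse chromosome 19. Ms4a4c, Ms4a4b, Ms4a6c, Ms4a6b, Ms4a4d and Ms4a6d follow each other in that order among the Ms4a genes, whereas Ms4a1 and Ms4a7 come earlier. From Ms4a4c to Ms4a6d there are 7 protein-coding genes, of which 6 carry an Ms4a symbol. Upstream sequences were matched by symbol for 4 of the 6 genes, Ms4a4c, Ms4a6b, Ms4a6c and Ms4a7, and not for Ms4a1 and Ms4a6d. The 250 bases before the start of 4 of these genes are shown, each of which was called higher in light-damaged RPE, as given further on. Capitals mark the longest run of letters shared by Ms4a6c and Ms4a6b, and by Ms4a4c and Ms4a4b. The windows, all on the plus strand, are chr19:11469118-11469367 for Ms4a6c, chr19:11518309-11518558 for Ms4a6b, chr19:11407411-11407660 for Ms4a4c and chr19:11443308-11443557 for Ms4a4b.
Ms4a6c: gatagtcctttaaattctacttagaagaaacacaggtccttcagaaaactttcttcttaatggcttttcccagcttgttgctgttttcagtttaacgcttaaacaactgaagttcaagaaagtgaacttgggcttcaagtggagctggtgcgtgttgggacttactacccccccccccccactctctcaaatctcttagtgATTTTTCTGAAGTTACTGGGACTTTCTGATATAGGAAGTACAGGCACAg
Ms4a6b: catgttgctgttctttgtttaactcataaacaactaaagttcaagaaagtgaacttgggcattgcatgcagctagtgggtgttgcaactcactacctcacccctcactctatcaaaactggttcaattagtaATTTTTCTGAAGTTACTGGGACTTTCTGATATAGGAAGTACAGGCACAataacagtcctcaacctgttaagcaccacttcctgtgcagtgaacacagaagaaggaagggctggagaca
Ms4a4c: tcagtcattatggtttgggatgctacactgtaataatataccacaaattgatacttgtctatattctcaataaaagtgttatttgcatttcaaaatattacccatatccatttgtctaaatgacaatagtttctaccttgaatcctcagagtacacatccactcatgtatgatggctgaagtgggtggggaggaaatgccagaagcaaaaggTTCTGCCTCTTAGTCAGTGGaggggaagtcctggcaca
Ms4a4b: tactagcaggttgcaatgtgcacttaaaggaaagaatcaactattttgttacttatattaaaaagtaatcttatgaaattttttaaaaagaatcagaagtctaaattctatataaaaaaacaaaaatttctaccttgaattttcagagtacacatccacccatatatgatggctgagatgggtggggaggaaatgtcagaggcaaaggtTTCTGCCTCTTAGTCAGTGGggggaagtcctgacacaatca

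The run shared by Ms4a6c and Ms4a6b is 48 bases long and lies at -49 to -2 from the start of Ms4a6c and at -118 to -71 from that of Ms4a6b. Among 32851 promoter windows of RefSeq it was found in 2, those of these 2 genes. The windows of Ms4a4b and Ms4a4c, from 250 bases before to 50 after the start, were identical at 72.3% of aligned positions, with a longest shared run of 20 bases, and those of Ms4a6b and Ms4a6c at 51.2%. All other pairs among these genes and the 2 windows of Ms4a7 lay between 43.4% and 47.7%, with shared runs of at most 9 bases. Gaps count in these shares, and the alignment of Ms4a6b and Ms4a6c had 375 columns. As a share of the window length, identity was 75% for Ms4a4b and Ms4a4c and 64% for Ms4a6b and Ms4a6c. By that measure all other pairs lay between 47% and 52%. Motifs were searched on both strands of the same windows. GAGGAA, the core bound by the myeloid factor PU.1, was found at -61 in Ms4a4c, -64 in Ms4a4b and 44 in 1 window of Ms4a7, and not in those of Ms4a6b and Ms4a6c. Of all windows, 28.3% hold it. GGAAGT, a core of the ETS factors to which PU.1 belongs, was added after the sequences were seen, and it can overlap GAGGAA. It was found in Ms4a4c, Ms4a4b, Ms4a6b, Ms4a6c and 1 window of Ms4a7, against 23.8% of all windows. As this core was picked on these sequences, nothing is read from that comparison. The windows are also not independent, because Ms4a6b and Ms4a6c each have a site inside their shared run. Those of Ms4a4b and Ms4a4c are alike over most aligned positions, as given above. The octamer ATTTGCAT was found in Ms4a4c at -170 (1.74% of all windows). TGANTCA, the AP-1 motif, was found in Ms4a4b at 23 and in the second window of Ms4a7 at -81 (7.81% of all windows). Neither the interferon-stimulated response element (3.44%) nor TTGCNNAA, a C/EBP motif (10.8%), was found in any of these windows.

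In the fit with the replicate block, 4 of the 6 genes were called, all higher in light-damaged RPE, while over all genes 4.99% were called, 3.07% as higher and 1.92% as lower. Nothing is read from that count, because the genes were picked on this contrast. Ms4a6d, Ms4a6b, Ms4a4c and Ms4a6c were 5.28-fold, 2.65-fold, 2.44-fold and 2.42-fold higher in light-damaged than in dark-adapted RPE. Ms4a1 and Ms4a7 differed by -0.04 and 0.07 and were not called. The median difference of the 6 genes was 1.28, beside -0.0001 over all genes. In bulk tissue, more cells of a type and more RNA per cell cannot be told apart.

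**Figure D1:**
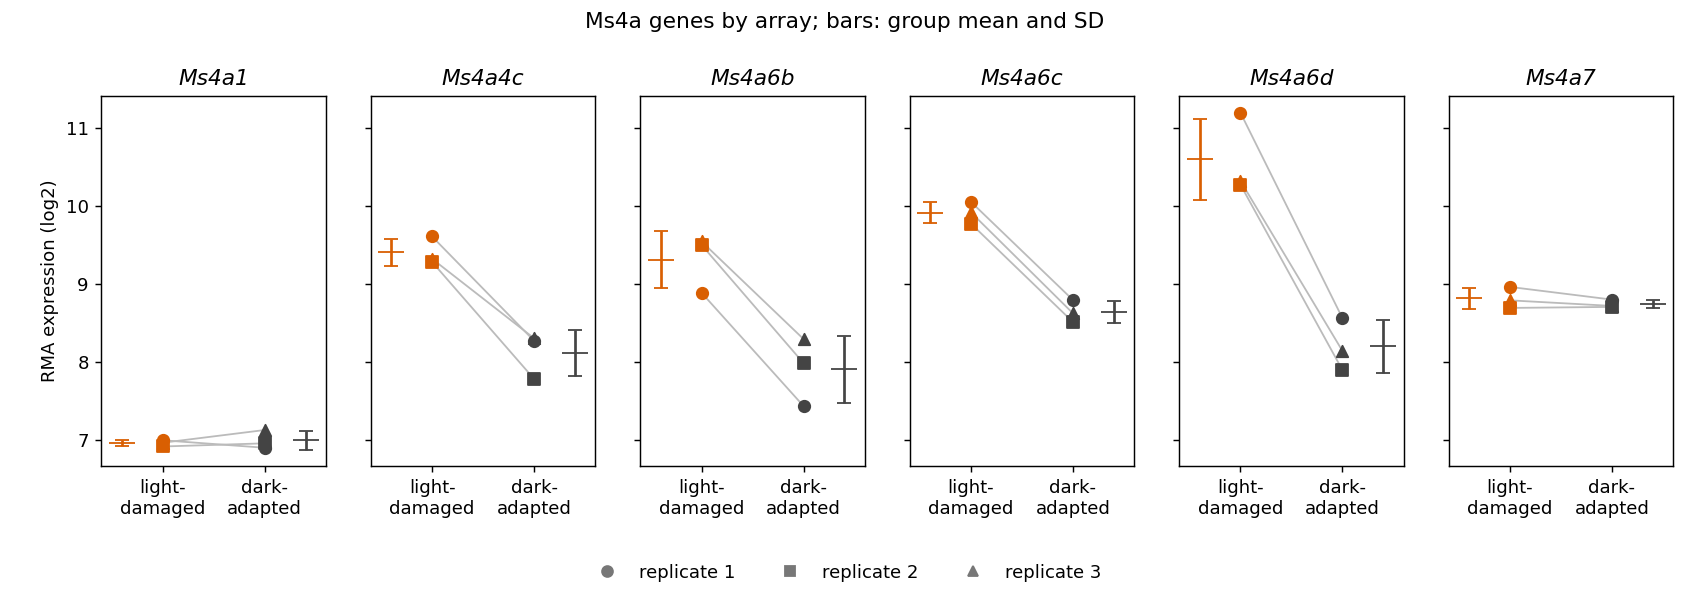
Log2 RMA expression (y axis) of the 6 Ms4a genes, light-damaged arrays left and dark-adapted arrays right in each panel, with symbols for replicates, grey lines joining arrays of the same number, and bars for the group mean and SD (n = 3). The groups are apart for Ms4a4c, Ms4a6b, Ms4a6c and Ms4a6d and overlap for Ms4a1 and Ms4a7. Levels of different genes come from different probes and cannot be set against each other.

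Ms4a6d, a surface protein of macrophages, had log2 values of 11.20, 10.28 and 10.32 in light-damaged replicates 1 to 3, against 8.56, 7.90 and 8.14 in dark-adapted replicates 1 to 3. Every light-damaged array was above every dark-adapted one, by at least 1.71, and replicate 1 was the highest array of both groups. The mean was 10.60 ± 0.52 in light-damaged and 8.20 ± 0.34 in dark-adapted RPE (SD, n = 3 each), a difference of 2.40 ± 0.11 (SE). The pairs gave 2.64, 2.38 and 2.18. Its probe set is of the s_at kind, which can bind related transcripts. A second, dimmer probe set of Ms4a6d gave 9.03, 8.91 and 8.80 in light-damaged against 6.43, 6.47 and 6.60 in dark-adapted arrays, a difference of 2.41, nearly that of the first. The remaining probe set, with values near the low end of the arrays (means of 4.23 and 4.15), gave 0.09.

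Ms4a6c, also known in macrophages, had values of 10.05, 9.77 and 9.92 in light-damaged and 8.79, 8.51 and 8.62 in dark-adapted replicates 1 to 3. The groups did not overlap, with a gap of 0.98 between the lowest light-damaged and the highest dark-adapted array. The difference was 1.27 ± 0.08 (SE), from means of 9.91 ± 0.14 in light-damaged and 8.64 ± 0.14 in dark-adapted RPE (SD, n = 3 each). The pair differences of 1.26, 1.26 and 1.30 had an SD of 0.0196, the smallest of the 6 genes. The dimmer probe set of Ms4a6c did not part the groups: it gave 8.28, 7.44 and 7.52 in light-damaged against 7.89, 7.51 and 7.30 in dark-adapted arrays, a difference of 0.18. The mean of both probe sets gave a difference of 0.73 for this gene.

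Ms4a6b, known from mouse T cells, had values of 8.89, 9.50 and 9.54 in light-damaged and 7.43, 7.98 and 8.29 in dark-adapted replicates 1 to 3. On this probe set replicate 1 was the lowest array of both groups, the opposite of the brightest probe set of Ms4a6d. The groups still did not overlap. The means were 9.31 ± 0.37 in light-damaged and 7.90 ± 0.44 in dark-adapted RPE (SD, n = 3 each), a difference of 1.41 ± 0.10 (SE) with pairs at 1.45, 1.52 and 1.25. The second probe set of Ms4a6b, dimmer at 6.74, 6.59 and 6.83 in light-damaged against 5.53, 5.75 and 5.74 in dark-adapted arrays, differed by 1.04 and also parted the groups.

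Ms4a4c had values of 9.61, 9.28 and 9.32 in light-damaged and 8.27, 7.78 and 8.30 in dark-adapted replicates 1 to 3, again without overlap. Its difference was 1.29 ± 0.12 (SE), between means of 9.40 ± 0.18 in light-damaged and 8.12 ± 0.29 in dark-adapted RPE (SD, n = 3 each), and the pairs gave 1.34, 1.50 and 1.02. This probe set is of the x_at kind, whose probes can also bind unrelated or closely related transcripts. The other probe set of Ms4a4c, an s_at, gave 8.62, 8.57 and 8.70 in light-damaged against 5.53, 5.69 and 5.70 in dark-adapted arrays. It differed by 2.99 with pairs at 3.09, 2.88 and 3.00, the largest difference of any of the 13 probe sets of the 6 genes. The size of the Ms4a4c difference thus depends on the probe set, from 1.29 to 2.99, with the same direction, and the mean of both was 2.14.

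Ms4a7, a macrophage gene that in the mouse brain marks border and marrow-derived macrophages, had values of 8.96, 8.69 and 8.79 in light-damaged against 8.80, 8.71 and 8.72 in dark-adapted replicates 1 to 3. The groups overlapped, and the difference was 0.07 ± 0.09 (SE), with pairs at 0.16, -0.01 and 0.07. Ms4a1, the CD20 gene of B cells, had 7.00, 6.92 and 6.96 in light-damaged against 6.90, 6.96 and 7.13 in dark-adapted replicates, with a difference of -0.04 ± 0.09. The second probe sets of Ms4a7 and Ms4a1 differed by 0.03 and 0.004. They were dim, with means of 4.96 and 4.09 in light-damaged arrays, so their differences near 0 show little. The first probe set of Ms4a7 had means of 8.81 in light-damaged and 8.74 in dark-adapted arrays, above the median gene level of 8.37. That of Ms4a1, at 6.96 and 6.99, lay below it. All 4 differences are near 0. The files hold no detection calls, so whether these 2 genes were expressed at all cannot be read from them.

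**Figure D2:**
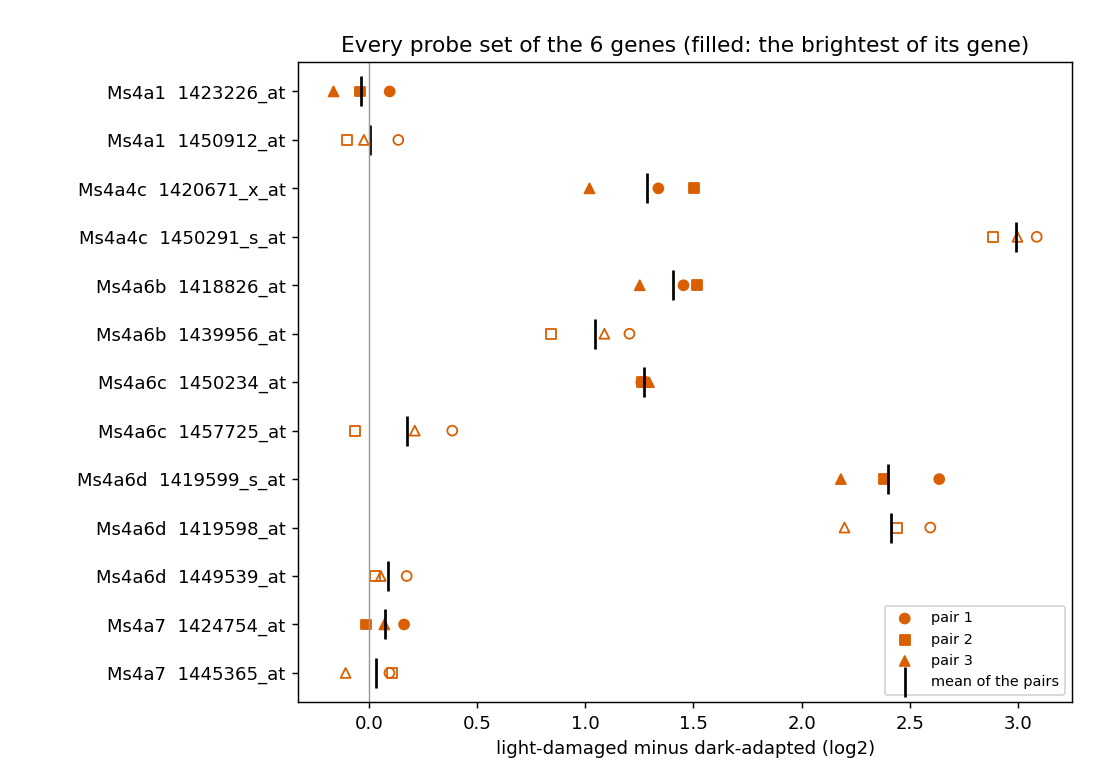
Difference of light-damaged minus dark-adapted arrays (log2, x axis) for the 13 probe sets of the 6 genes (rows), with a symbol for each replicate pair and a bar for their mean. The brightest probe set of each gene is filled. The probe sets of Ms4a6d lie at 2.40, 2.41 and 0.09, those of Ms4a6b at 1.41 and 1.04, those of Ms4a4c at 1.29 and 2.99 and those of Ms4a6c at 1.27 and 0.18.

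The offset of replicate 1 went in different directions among the brightest probe sets of the 4 called genes. Ms4a6d was higher in replicate 1 than in the mean of replicates 2 and 3 by 0.90 in light-damaged and 0.54 in dark-adapted arrays. Ms4a6b had offsets of -0.64 in light-damaged and -0.70 in dark-adapted arrays, while Ms4a4c had 0.31 and 0.23 and Ms4a6c 0.21 and 0.23. The offset thus had the same sign in both groups for each of these probe sets. Further probe sets of the same genes had other offsets. The second of Ms4a6d had 0.17 in light-damaged and -0.11 in dark-adapted arrays, and its dimmest 0.37 and 0.24. The other probe set of Ms4a6b had 0.03 and -0.21, that of Ms4a4c -0.02 and -0.16 and that of Ms4a6c 0.80 and 0.49. Without the replicate block none of the 6 genes was called by limma, beside 0.0495% of all genes, though 4 had an unadjusted p under 0.05, beside 5.94% of all genes. Without both replicate 1 arrays, Ms4a4c, Ms4a6b, Ms4a6c and Ms4a6d were called in the fit with the block (beside 6.84% of all genes) and in the fit without it (beside 4.36%). Without replicate 2 or 3 these genes were called as well, beside 3.72% and 1.25% of all genes. The groups did not overlap for 4 of the 6 genes, against 10.3% of all genes, or 6.61% counting only those higher in light-damaged RPE. All 3 pairs were higher for the same 4 genes, against 19.9% of all genes. These shares too stand beside genes picked on the contrast, and nothing is read from them.

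Of the other Ms4a family genes, 11 of 17 listed were measured, the Ms4a-related Tmem176a and Tmem176b among them, and 1 rose, none fell. Ms4a4b, which modulates T cell activation in mice, had 7.73, 6.68 and 6.91 in light-damaged against 6.45, 5.88 and 6.003 in dark-adapted replicates 1 to 3. It rose by 0.99 ± 0.12, or 1.99-fold (limma adjusted p = 0.0085), with no overlap between the groups, and the call was lost without the replicate block (limma adjusted p = 0.57). The other probe set of Ms4a4b went the other way, with a difference of -0.23 and values of 5.42, 4.75 and 4.79 against 5.81, 4.96 and 4.88. Ms4a4c is the gene whose upstream window is nearest to that of Ms4a4b, as given with the sequences. Whether the probes of the 2 genes bind each other's transcripts was not tested.

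Tmem176a and Tmem176b, which encode related membrane proteins of dendritic cells and macrophages, differed by 0.65 ± 0.15 and 0.55 ± 0.12 and were not called (limma adjusted p = 0.069 and 0.055). All 3 probe sets of Tmem176a had positive differences, of 0.65, 0.59 and 0.87. The count of called genes among the 11 varied with the processing. It was 3 without replicate 1 and under quantile normalization, 4 with array weights, 2 with the mean of all probe sets and 0 when dim genes were left out. Without the block limma called 0, with 3 at an unadjusted p under 0.05. Ms4a8a (0.38 ± 0.10, limma adjusted p = 0.087) and Ms4a4d (0.27 ± 0.09, limma adjusted p = 0.18) were not called. Ms4a3, a gene of granulocyte and monocyte progenitors, differed by 0.15, and Ms4a2, the beta chain of the mast cell IgE receptor, by 0.02. Ms4a18, Ms4a13, Ms4a15 and Ms4a10 lay between -0.14 and 0.08, and Ms4a19 and Ms4a20, which were added after seeing the files, differed by 0.14 and 0.02.

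In the order of the Ms4a genes along the chromosome, the 5 called ones were Ms4a4c, Ms4a4b, Ms4a6c, Ms4a6b and Ms4a6d, with Ms4a4d, not called, between the last 2 of these. The 11 measured Ms4a genes that come before Ms4a4c or after Ms4a6d, Ms4a1 and Ms4a7 included, had differences from -0.14 to 0.38. The bounds of this stretch were set by the called genes and 4 of the 5 were picked on the same contrast, so the order is a description and nothing is read from it. Ms4a4a, next before Ms4a4c among the Ms4a genes, was not analysed here.

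**Figure D3:**
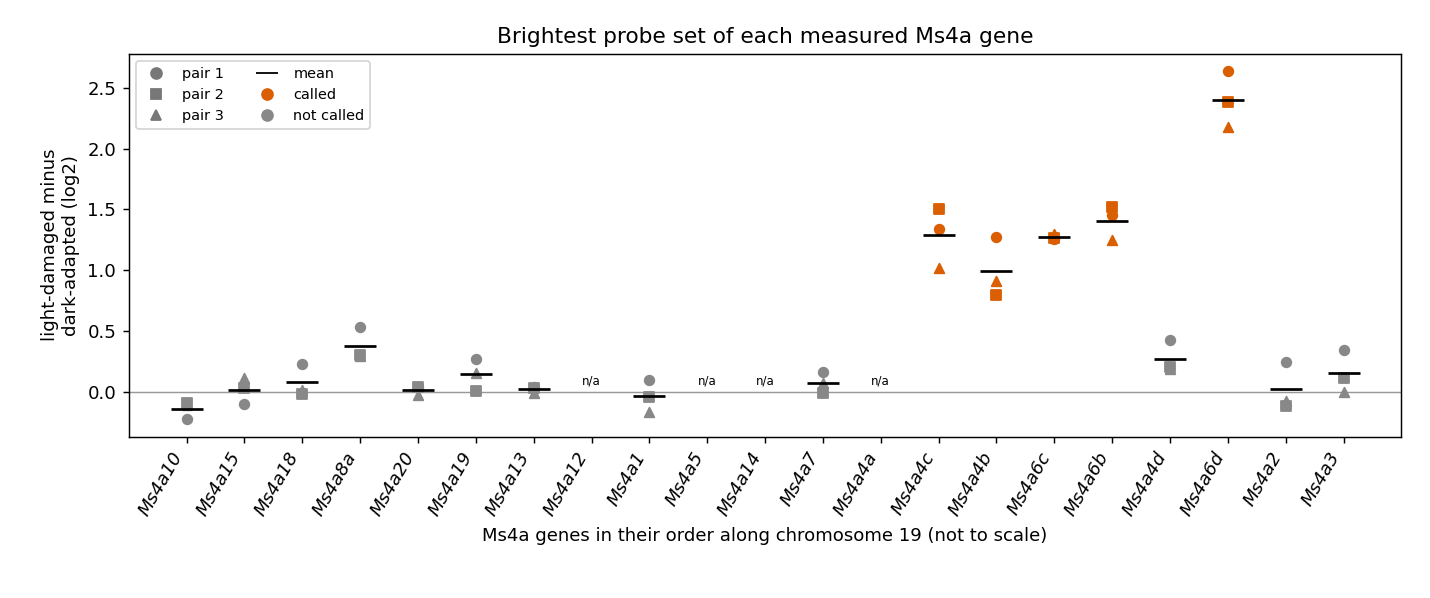
Difference of light-damaged minus dark-adapted arrays (log2, y axis) for the brightest probe set of each measured Ms4a gene, in the order of the genes on chromosome 19, with a symbol per replicate pair and a bar for the mean. Called genes are orange, and genes not analysed here are marked n/a. The called genes are Ms4a4c, Ms4a4b, Ms4a6c, Ms4a6b and Ms4a6d, from 0.99 to 2.40.

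Ms4a2 carries an ITAM, the motif through which a phosphorylated receptor or adaptor recruits the kinase SYK. Of 9 measured genes of this pathway, 7 rose and the median difference was 0.61, with no gene called lower. The adaptor gene Tyrobp rose by 1.06 ± 0.11 (limma adjusted p = 0.0066) and the adaptor gene Fcer1g, partner of Ms4a2 in the IgE receptor, by 0.97 ± 0.09 (adjusted p = 0.0047). Clec7a, the beta-glucan receptor Dectin-1, rose by 0.84 ± 0.10 (adjusted p = 0.0089), and Inpp5d, a phosphatase that limits this signalling, by 0.61 ± 0.10 (adjusted p = 0.026). Trem2, the lipid receptor of macrophages and microglia that signals through Tyrobp, differed by 0.20 ± 0.10 and was not called. The list's count was 2 without replicate 3. It was 0 without the block, where limma gave 8 of the 9 genes an unadjusted p under 0.05.

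Of 7 transcription factors of myeloid and B cells, 4 rose: Cebpb by 1.11 ± 0.08, Spi1, which encodes PU.1, by 0.97 ± 0.11, Ikzf1 by 0.96 ± 0.09 and Irf8 by 0.84 ± 0.10. Their limma adjusted p-values were 0.0023, 0.0069, 0.0051 and 0.0092. Ebf1, a factor of early B cells, differed by -0.16 and was not called, and neither were Cebpa and Runx1. The median was 0.84. Without the block limma called 0 of the 7, of which 4 had an unadjusted p under 0.05.

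Markers of the cell types that could carry Ms4a transcripts moved unequally. Of 12 macrophage and microglia markers, 10 rose, with a median of 1.14, and the mean of the list was 9.83 to 9.94 in light-damaged against 8.91 to 9.02 in dark-adapted arrays. The lysosomal glycoprotein gene Cd68 rose by 2.11 ± 0.11 (limma adjusted p = 7.5e-04), close to the size of the Ms4a6d difference. Cd53, Lyz2 and the Fc receptor gene Fcgr1 rose by 1.17, 1.13 and 1.32. Csf1r, the receptor of the macrophage growth factor, differed by -0.15 and was not called. Its probe set, 1 of 3 for this gene, was bright, with means of 13.45 in light-damaged and 13.60 in dark-adapted arrays. Values of the others are not given here. Offsets of replicate 1 were split within this list. Ptprc, the leukocyte gene CD45, had -1.59 in light-damaged and -1.11 in dark-adapted arrays, below 0 like the brightest probe set of Ms4a6b. Mrc1, the mannose receptor, had -1.37 and -0.88, and Aif1 -1.28 and -0.65. Others lay above 0 like the brightest probe set of Ms4a6d, among them Cd68 (1.08 and 0.83), Cd14 (0.73 and 0.25) and Csf1r (0.61 and 0.47). Without replicate 2 or 3 the count was 7, and without the block limma called 0, with 8 at an unadjusted p under 0.05. Of 7 microglia markers, 1 rose, the chemokine receptor gene Cx3cr1 by 0.50 ± 0.10 (limma adjusted p = 0.040), and the list had 0 calls without replicate 2 or 3, under quantile normalization, with the mean of all probe sets and without the block, where limma gave none an unadjusted p under 0.05. With array weights 2 were called. The other 6 were not called, among them P2ry12 at -0.35 ± 0.09 and Tmem119 at 0.03. Olfml3, also not called, had the largest difference of the list, 0.59 ± 0.37, with pairs at -0.24, 1.89 and 0.11. The mean of the microglia list was 7.68 to 7.89 in light-damaged and 7.71 to 7.87 in dark-adapted arrays.

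Of 5 monocyte markers measured, the chitinase-like gene Chil3 rose by 1.74 ± 0.12 and the coagulation factor gene F13a1 by 1.67 ± 0.11 (both with a limma adjusted p of 0.0015), of which the call of Chil3 alone held without the block. Plac8, at 0.55 ± 0.15, the chemokine receptor gene Ccr2, at 0.19 ± 0.09, and Vcan were not called. When dim genes were left out, the list's count was 1. The mean of the list was 9.15 to 9.45 in light-damaged and 8.39 to 8.40 in dark-adapted arrays. Of 7 neutrophil markers, S100a8 and S100a9 rose by 1.90 ± 0.14 and 1.10 ± 0.09, with limma adjusted p-values of 0.0022 and 0.0026. The other 5, not called, were Csf3r at 0.48, Elane at 0.08, Camp at 0.08, Ngp at 0.07 and Mpo at -0.10, so that the list's median was 0.08. Without the block limma called 0 of the 7, with 2 at an unadjusted p under 0.05, and 1 was called when dim genes were left out. The list's mean was 7.60 to 8.11 in light-damaged and 7.15 to 7.44 in dark-adapted arrays. Of 6 dendritic cell markers, Itgax rose by 0.54 ± 0.10 (limma adjusted p = 0.031), which was lost without replicate 2 or 3 and without the block, and the others were not called. Their mean was 6.98 to 7.36 in light-damaged and 6.92 to 7.02 in dark-adapted arrays.

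The lists of B cells, of T and NK cells and of mast cells and basophils, the cell types known for Ms4a1, Ms4a4b and Ms4a2, held no gene called by limma, and 0, 1 and 2 of their genes had an unadjusted p under 0.05. Without replicate 2, 1 T and NK cell gene was called higher and 1 mast cell and basophil gene lower. Differences of the 7 B cell markers lay between -0.06 and 0.13, with Cd79a at 0.10 ± 0.10 and Pax5 at -0.06 ± 0.10, and their mean was 7.08 to 7.40 in light-damaged and 7.06 to 7.26 in dark-adapted arrays. Of 7 T and NK cell markers, Nkg7 differed by 0.49 ± 0.11 (limma adjusted p = 0.068) and the others, Cd3e at 0.13 among them, by -0.05 to 0.13. The mean of that list was 6.93 to 7.55 in light-damaged and 6.95 to 7.21 in dark-adapted arrays. The 8 mast cell and basophil markers lay between -0.38 and 0.31, with a mean of 7.55 to 7.58 in light-damaged and 7.49 to 7.59 in dark-adapted arrays. RMA values have no zero, so no marker can be said to be at 0. The part of these cell types in the Ms4a differences was not tested.

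Differences of RPE and photoreceptor markers lay below 0 beside those of the 4 called Ms4a genes, and their part in these was not tested. The 10 RPE markers had a median difference of -0.39, none was above 0, and 1 was called, the retinol-esterifying enzyme gene Lrat at -0.69 ± 0.11 (limma adjusted p = 0.023). Of 7 photoreceptor markers, Nrl, Pde6b and Crx fell by 0.67, 0.55 and 0.51 on the log2 scale, with limma adjusted p-values of 0.026, 0.049 and 0.047. Without replicates 1, 2 and 3 in turn, limma called 2, 2 and 0 RPE markers and 1, 0 and 0 photoreceptor markers as lower. In the fit with the block and all arrays, 8 of the RPE and 5 of the photoreceptor markers had an unadjusted p under 0.05. Without the block limma called 0 in both lists, with 0 RPE markers and 1 photoreceptor marker at an unadjusted p under 0.05. With array weights 8 RPE markers were called, and 1 photoreceptor marker was called under quantile normalization or with a pseudocount.

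**Figure D4:**
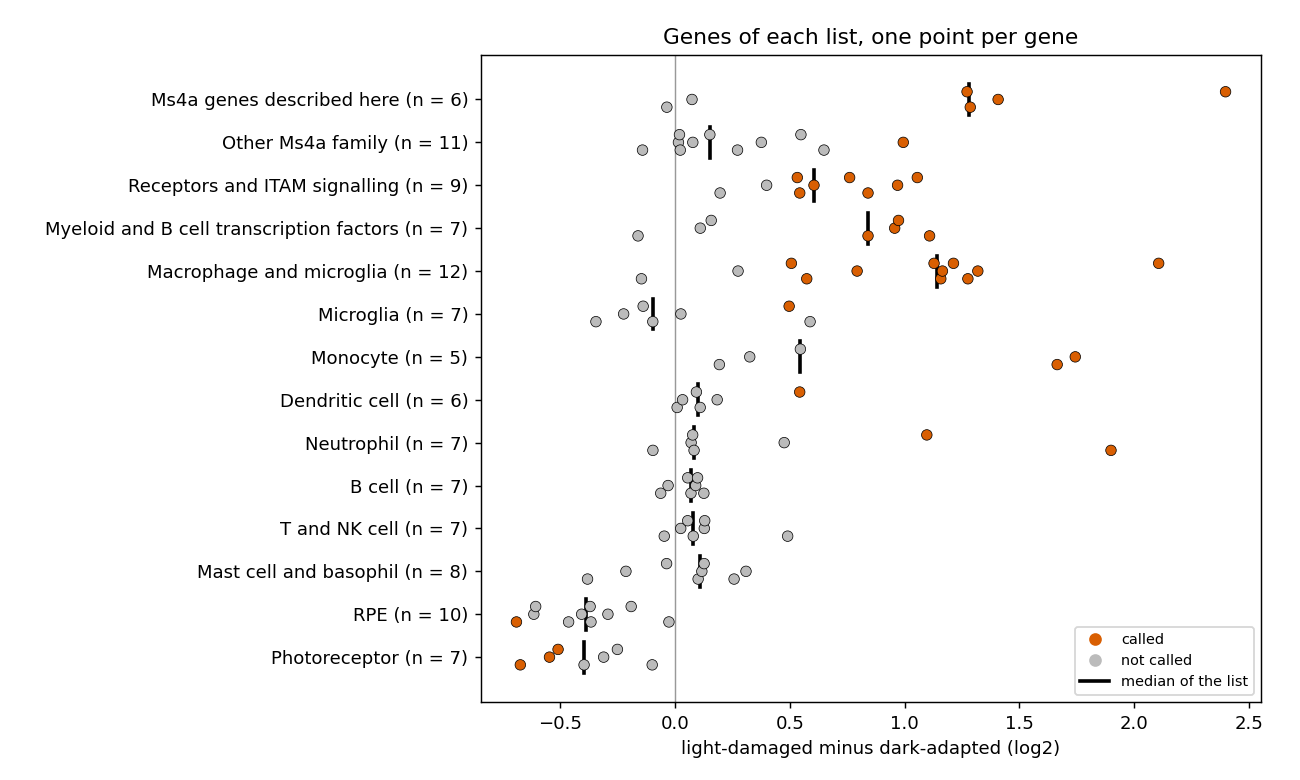
Difference of light-damaged minus dark-adapted arrays (log2, x axis) for the 6 Ms4a genes and the genes of each list (rows), one point per gene, orange where called, with a bar at the median. The Ms4a genes fall into a group from 1.27 to 2.40 and a pair near 0, and the macrophage and microglia list has its median at 1.14.

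Genes most like each Ms4a gene over the 6 arrays were ranked by Pearson's r of log2 values among 1808 other genes of at least median level and an SD over arrays of at least 0.5, clone names left out, so the light effect and the replicate 1 offset both enter the measure. Ms4a6d was most like Helz2 (r = 0.999), a helicase, Pfn1 (r = 0.998), the actin-binding profilin, and Ly86 (r = 0.997), a myeloid surface protein. Ms4a6c was most like the lysozyme gene Lyz2 (r = 0.998), Lrrc2 (r = 0.997) and the retinol carrier gene Rbp4 (r = 0.996). Ms4a4c was closest to Chil1 (r = 0.986), Helz2 (r = 0.986) and the proteoglycan gene Srgn (r = 0.985), and Ms4a6b to Npl, Tmsb10 and Pprc1, with r of 0.997, 0.992 and 0.992. Each of these 11 genes was called higher in light-damaged RPE, with differences from 0.87 to 3.01. As they were picked on these arrays for likeness to genes whose groups were apart, nothing is read from these calls. Among the called Ms4a genes themselves, Ms4a4c, Ms4a6c and Ms4a6d had r of 0.98 to 0.99 with each other, while Ms4a6b had 0.77 to 0.83 with them. These r are of the brightest probe sets, and other probe sets were not correlated. The brightest of Ms4a6b had replicate 1 offsets of -0.64 in light-damaged and -0.70 in dark-adapted arrays, its other probe set 0.03 and -0.21.

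Ms4a7 ranged over only 0.27 across the arrays and was most like Ccl5, Rsad2 and Selplg, with r of 0.959, 0.952 and 0.949. Their differences were 1.21, 0.33 and 0.59, and none of these 3 was called. Ms4a1, with a range of 0.23, had no gene above r = 0.58, its nearest being Sp4, Tc2n and Pdzd2. With 6 arrays and so small a range, such values describe these arrays only.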

How the data were processed

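RNA of the RPE was hybridised to 6 Affymetrix arrays, 3 per group. Per the submitters' processing notes RMA made the deposited log2 values, whose log2 scale was inferred from their range of 3.72 to 14.82. The RMA version is not given in the sources used here, and background correction could not be redone. Precision is limited by having 6 arrays. Of 45101 probe sets, 64 controls were left out, and 34945 had exactly 1 gene symbol, 932 several and 9160 none used here. The probe set with the highest mean over 6 arrays stood for each of 18193 genes.

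The fit used limma 3.58.1 (R 4.3.3), lmFit with eBayes, two-sided, adjusted by Benjamini-Hochberg over all genes, with the replicate number as a block and 2 residual degrees of freedom. The script was tested on simulated data in which arrays of the same replicate number were paired by construction, so that test does not bear on the pairing. What a replicate number marks is not given by the labels. After subtracting group means, arrays sharing a number had correlations of 0.89, 0.62 and 0.86 over genes, above the bound of 0.1, so the numbers were taken to pair them. Light-damaged replicate 3 had 0.65 with dark-adapted replicate 2, and light-damaged replicate 2 had 0.61 with dark-adapted replicate 3, also above the bound. As replicate 1 stood apart in both groups, this check cannot tell how replicates 2 and 3 pair. The difference of replicates 3 and 2 had a correlation of 0.33 between groups, and the pairing of these is less sure.

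The members and lists were chosen with earlier results of these data known. Named genes were the 6 members, all measured Ms4a relatives, the 3 most similar genes per member and the list genes with the smallest p. Some further list genes were named after their values were seen. Promoter windows (GRCm38.p6) are RefSeq's and were aligned with Biopython 1.88. Alternatives covered the block, normalization, dim genes, a pseudocount, probe sets, limma settings, array weights and left-out arrays.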

Additional observations from a re-analysis of the deposited data

How the results depend on the processing

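The count of 4 called Ms4a genes, Ms4a4c, Ms4a6b, Ms4a6c and Ms4a6d, held under quantile normalization, median centring, leaving out dim genes, adding a pseudocount of 16, the mean of all probe sets, trend and robust settings and array weights. It was 0 without the replicate block, where limma called 9 genes in all and 4 of the 6 had an unadjusted p under 0.05. Leaving out arrays gave 0 to 4 called Ms4a genes: 4 without replicate 1, 2 or 3 (beside 6.84%, 3.72% and 1.25% of all genes) and 0 when 1 array was left out of the fit without the block. The count over all genes was 908, against 1875 with array weights. Leaving out arrays gave 3 to 1245 genes, with 228 without replicate 3, and 12, 3 and 3 without light-damaged replicate 1, 2 or 3 and 4, 3 and 4 without dark-adapted replicate 1, 2 or 3 in the fit without the block. Dropping both replicate 1 arrays without the block, chosen after seeing the data, gave 793 genes.

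Over 18 alternatives the differences of Ms4a6d, Ms4a6b, Ms4a4c and Ms4a6c ranged from 1.63 to 2.58, 1.17 to 1.62, 1.12 to 2.14 and 0.73 to 1.35, with no change of direction. The mean of all probe sets gave 1.63 for Ms4a6d, 2.14 for Ms4a4c and 0.73 for Ms4a6c. Ms4a1 ranged from -0.10 to 0.03. The filter on dim genes left out Ms4a4b, so the other Ms4a genes held 0 calls there. Dim probe sets near the low end of the arrays, such as the dimmest of Ms4a6d, limit what a difference near 0 can show.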
